A study of Homo sapiens with 4 samples.

Results

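The kinesin motor genes were taken as all genes whose single symbol began with KIF followed by a digit or the letter C. The rule found 44 genes, on 47 transcript clusters, of 24305 genes with 1 symbol on the array. Of these, 42 encode motor proteins and 2 are antisense RNA genes, KIF9-AS1 and KIF25-AS1. The motors were divided into 11 mitotic kinesins, 15 transport kinesins and 16 other motors, and the rule set the mitotic kinesins against the transport kinesins.

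Kinesins are ATP-driven motors that walk along microtubules or shorten them. One set of family members builds the mitotic spindle, aligns chromosomes and completes cytokinesis, and its genes are switched on mainly in G2 and mitosis of dividing cells. Another set carries vesicles, organelles and ciliary components along the microtubules of cells at any stage of the cycle. In carcinoma cells the mitotic set is commonly read as part of the proliferation programme, and several of its members, such as KIF11, have been drug targets.

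All cells came from MDA-MB-231, a long-established line of human breast carcinoma. One culture medium (treated) was prepared from 10X DMEM and 9 parts of hypotonic saline that a BEFE (Bio-Electric Field Enhancement) unit had exposed to its dc DEP EMF for 30 minutes. The other medium (control) was prepared from the same components with unexposed saline. Cells grew for 24 hours in DMEM with serum and then for 3 days in one or the other medium, so hypotonic saline was common to both. The question was which genes differ in expression between the media. The files hold 1 column of gene-level log2 signal for each medium. Although the labels speak of triplicate wells and of 5 biological replicates in the RNA quality check, they do not say whether a column is 1 array, a pool or an average. No spread between cultures could therefore be measured, no test was possible, and no value below carries an error.

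Array signal had a median of 6.31 in treated and 6.33 in control medium over 53617 probe sets. A gene is called measured where its log2 signal, averaged over both media, was at or above a floor of 7.17, the middle value of that average among named probe sets. This held for 12353 genes. Their median difference, treated minus control, was -0.01 with an SD across genes of 0.54. A 2-fold difference, or 1 on the log2 scale, was used as the size limit. Of the measured genes, 3.46% were lower in treated medium by 2-fold or more, 3.22% were higher by as much, and 50.6% had a difference below 0. The mesenchymal markers expected of the line, VIM, CD44, MSN and SPARC, were measured, and the hormone receptor genes ESR1 and PGR were under the floor in both media. ERBB2 and EPCAM, listed as low in this line, were above the floor. Of 9 markers of leukocytes, endothelium and fibroblasts, 8 were found by name and 1, COL1A1, was measured. Signals of different genes come from different probes, so levels are compared below only within a gene.

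Mitotic kinesin genes were lower in treated medium as a group, and transport kinesin genes were close to the same in both media. All 11 mitotic kinesins were measured and all 11 had lower signal in treated medium, beside 50.6% of all measured genes. Of them, 10 were at least 2-fold lower, beside 3.46% of all measured genes. Their median difference was -1.58, a treated signal of 33.4% of control, where the median of all measured genes was -0.01. Of the 15 transport kinesins 11 were measured, 0 differed by 2-fold in either direction, beside 6.69% of all measured genes. Among 11 genes a count of 0 is near that share. The median of the transport kinesins was 0.04. The gap between both medians was -1.63 on the log2 scale, or 3.08-fold. The lowest transport kinesin, at -0.58, lay above the highest mitotic kinesin, at -0.94, so the 2 classes as listed did not overlap. Of all measured genes, KIF1C at -0.58 ranked 1209th from the lowest and KIF22 at -0.94 ranked 488th. The lack of overlap depends on the lists, which were chosen with earlier results of these data known. KIF2A, a depolymerase of spindle poles kept outside the mitotic list, had a difference of -0.15, within the transport range. In a bulk culture, fewer cells in G2 and mitosis and less kinesin RNA per cell cannot be told apart.

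**Figure D1:**
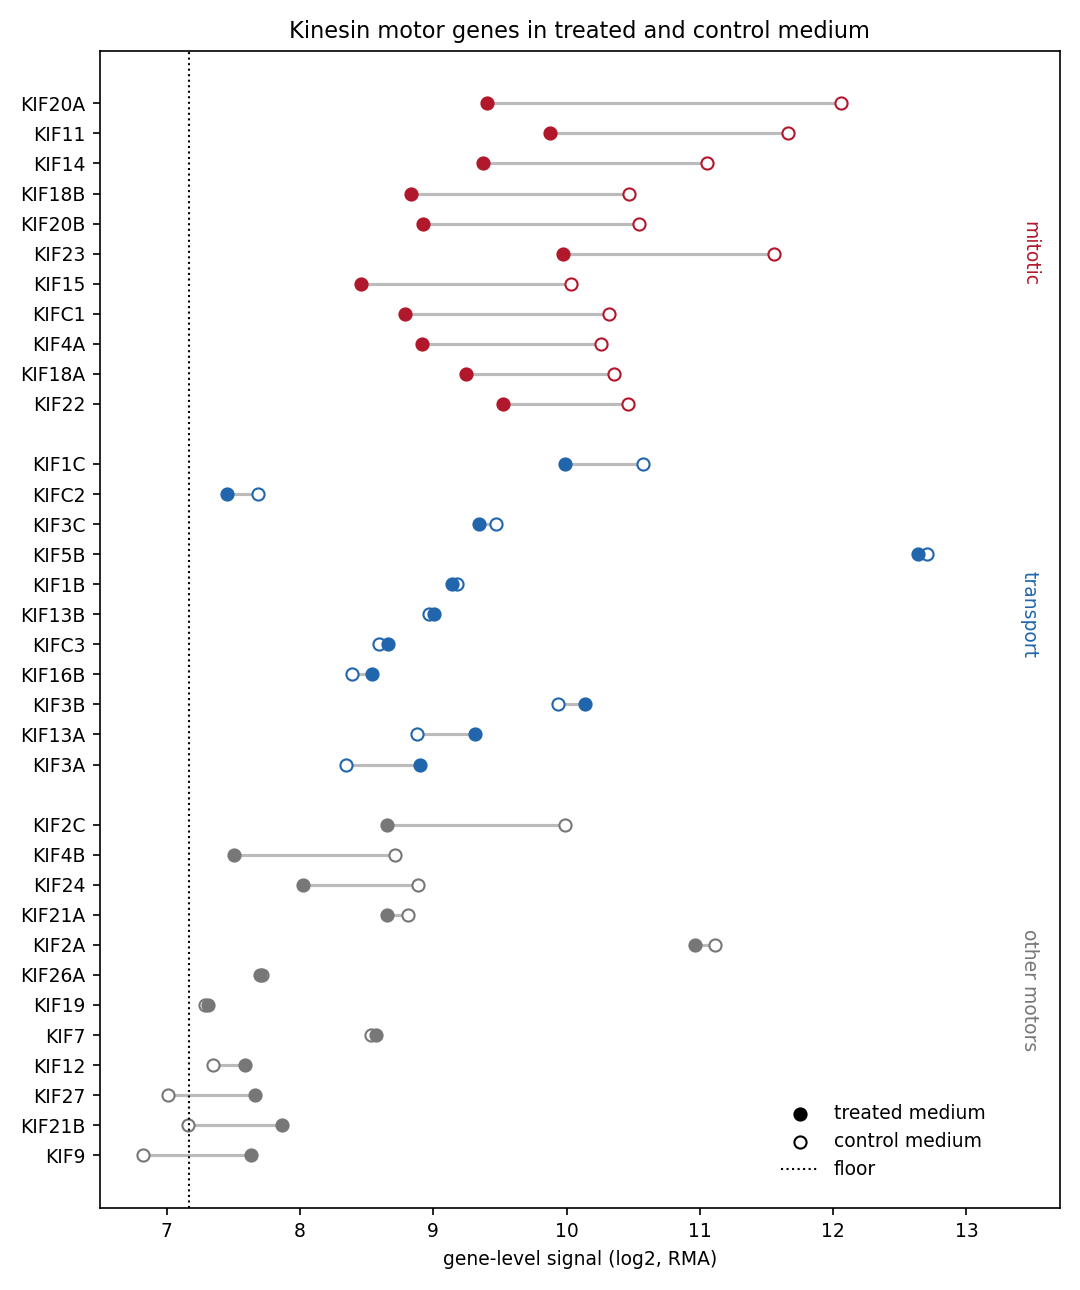
Gene-level log2 signal of the 34 measured kinesin motor genes in treated (filled) and control medium (open), 1 value each, with the floor of 7.17 as a dotted line. The mitotic kinesins all lie to the left in treated medium, KIF20A furthest, while both symbols of most transport kinesins nearly touch.

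Promoter sequence was looked at because the mitotic members were lower together. A pair of short elements are known from promoters of G2 and mitosis genes. The cell cycle genes homology region (CHR) is bound by the MuvB complexes, which repress such genes in resting cells as DREAM and activate them with B-MYB and FOXM1, and the CCAAT box is bound by NF-Y. Windows of 250 bases before to 50 bases after the annotated start were available for 34 of 42 motor genes (RefSeq, GRCh38.p14) and were searched on both strands for CHR as TTTGAA or TTCGAA and for CCAAT. The windows below run from 140 bases before to 10 bases after the start, with capitals for either motif on either strand, so that TTCAAA and ATTGG are the opposite-strand spellings. They show the mitotic kinesin with the lowest treated signal relative to control, 4 more mitotic members with both motifs, and 2 transport kinesins. They lie at chr5:138178972-138179121 (plus strand), chr10:92592990-92593139 (plus), chr1:200620742-200620891 (minus), chr17:44947764-44947913 (minus), chr15:69414209-69414358 (plus), chr10:32056416-32056565 (minus) and chr17:4997810-4997959 (plus), each covering the core promoter and first bases of the named gene.
KIF20A: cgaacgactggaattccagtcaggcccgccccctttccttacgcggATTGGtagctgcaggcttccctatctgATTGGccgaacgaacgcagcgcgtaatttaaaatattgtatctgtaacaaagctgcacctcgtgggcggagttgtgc
KIF11: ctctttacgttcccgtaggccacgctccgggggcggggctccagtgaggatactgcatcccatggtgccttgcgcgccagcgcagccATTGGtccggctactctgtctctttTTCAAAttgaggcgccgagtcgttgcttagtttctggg
KIF14: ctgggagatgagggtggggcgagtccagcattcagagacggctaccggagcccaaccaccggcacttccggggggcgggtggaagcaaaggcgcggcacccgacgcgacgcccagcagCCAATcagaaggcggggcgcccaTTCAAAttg
KIF18B: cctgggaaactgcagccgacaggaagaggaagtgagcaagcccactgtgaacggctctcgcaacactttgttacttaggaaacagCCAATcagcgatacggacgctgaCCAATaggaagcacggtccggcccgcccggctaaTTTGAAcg
KIF23: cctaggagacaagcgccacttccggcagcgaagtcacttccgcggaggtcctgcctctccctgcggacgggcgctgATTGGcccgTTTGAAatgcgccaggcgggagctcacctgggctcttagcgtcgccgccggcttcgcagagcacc
KIF5B: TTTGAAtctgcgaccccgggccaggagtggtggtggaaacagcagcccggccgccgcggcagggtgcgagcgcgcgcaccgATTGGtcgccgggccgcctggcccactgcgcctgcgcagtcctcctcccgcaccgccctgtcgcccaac
KIF1C: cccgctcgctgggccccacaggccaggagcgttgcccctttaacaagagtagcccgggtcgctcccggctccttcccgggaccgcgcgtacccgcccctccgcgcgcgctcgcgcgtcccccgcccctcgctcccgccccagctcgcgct

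Of the 11 mitotic kinesin genes, 10 had CHR letters in a window, 10 had CCAAT and 9 had both. KIF20A had no CHR match, and in this window it carried CCAAT letters at 2 places on the opposite strand. KIF15 had CHR and no CCAAT. Of 11 transport kinesin genes with a window, 1 had CHR letters, KIF5B, and 4 had CCAAT. Of 12 other motors with a window, 2 had both, KIF4B and KIF24. These 11 and 12 genes are not the measured sets of the same size. They include KIF5C and KIF6, which were under the floor. Over all 27305 genes with a window, 19.5% had CHR, 39.7% had CCAAT and 7.85% had both. In 7 of the 9 mitotic genes with both, the CHR letters lay at most 34 bases from the nearest CCAAT: 4 bases apart in KIF23, 18 in KIF14, 19 in KIF4A, 20 in KIF11, 29 in KIF18B, 30 in KIF18A and 34 in KIF22. They lay 45 bases apart in KIFC1 and 117 in KIF20B. The distance was not computed over all genes with both motifs, so whether it is short for such genes is not known. Outside the mitotic list the distance was 19 bases in KIF4B, the copy of KIF4A, 43 in KIF24 and 75 in the transport gene KIF5B, and in these genes no CHR match overlapped a CCAAT match. Of the listed G2 and M phase genes with a window, 9 of 13 had CHR letters, against 1 of 10 G1 and S phase genes and 0 of 17 dynein and dynactin genes. A match describes these letters only. Both motifs were chosen as known elements of G2 and mitosis genes, so matches in mitotic kinesins were likely whatever the medium. The matches therefore add no support to the difference between media. Binding was not measured.

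Among motors that act in anaphase and cytokinesis, KIF20A had the lowest difference, treated minus control, of the family. KIF20A (MKLP2), which carries the chromosomal passenger complex to the spindle midzone, had a log2 signal of 9.40 in treated and 12.06 in control medium, 6.30-fold lower. Its difference was the 11th lowest among the 12353 measured genes. KIF20B (MPP1), its relative at the midbody, had 8.92 in treated and 10.54 in control medium, 3.07-fold lower. The difference of KIF20A was thus 2.05-fold beyond that of KIF20B. The gene KIF14, whose product recruits citron kinase to the midbody, had 9.37 in treated and 11.05 in control medium, 3.21-fold lower. KIF23 (MKLP1), the motor of the centralspindlin complex, had 9.98 in treated and 11.56 in control medium, 2.99-fold lower. These last 3 had differences between -1.58 and -1.68. KIF4A, a chromokinesin that limits microtubule length in the central spindle, had 8.92 in treated and 10.26 in control medium, 2.54-fold lower. Its near-identical copy KIF4B had 7.50 and 8.71 and was 2.31-fold lower, and the array may not separate the 2 copies.

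Motors that build the bipolar spindle were lower by similar amounts. KIF11 (Eg5), which slides antiparallel microtubules apart to separate the poles, had 9.88 in treated and 11.66 in control medium, 3.45-fold lower and next to KIF20A in the family. KIF15, which can keep the spindle bipolar beside KIF11, had 8.46 in treated and 10.03 in control medium, 2.98-fold lower. KIFC1 (HSET), a minus-end motor that focuses poles and clusters extra centrosomes, had 8.79 in treated and 10.32 in control medium, 2.89-fold lower. These 3 motors, which push and pull on the same spindle, thus lay between 2.89-fold and 3.45-fold. KIFC1 was the family member with several transcript clusters. Of its 4 clusters, 2 held identical values and a further one had a difference of -1.62. The last had 5.89 in treated and 6.28 in control medium, a difference of -0.39, with both signals under the floor.

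Motors that position chromosomes or set spindle length included the smallest differences of the mitotic class. KIF18B, which trims astral microtubules, had 8.83 in treated and 10.47 in control medium, 3.11-fold lower. KIF18A, which damps chromosome movement at the metaphase plate, had 9.24 in treated and 10.36 in control medium, 2.16-fold lower. It was the mitotic member just past the 2-fold limit. KIF22 (Kid), which pushes chromosome arms away from the poles, had 9.52 in treated and 10.46 in control medium, 1.92-fold lower, and was the 1 mitotic member short of it. KIF2C (MCAK), a depolymerase that corrects faulty kinetochore attachments and stood outside the fixed mitotic list, had 8.65 in treated and 9.99 in control medium, 2.53-fold lower. Counting KIF2C among the mitotic members gave 11 of 12 at least 2-fold lower and a median of -1.58. No setting added its relative KIF2A, whose difference was -0.15, to the mitotic list.

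**Figure D2:**
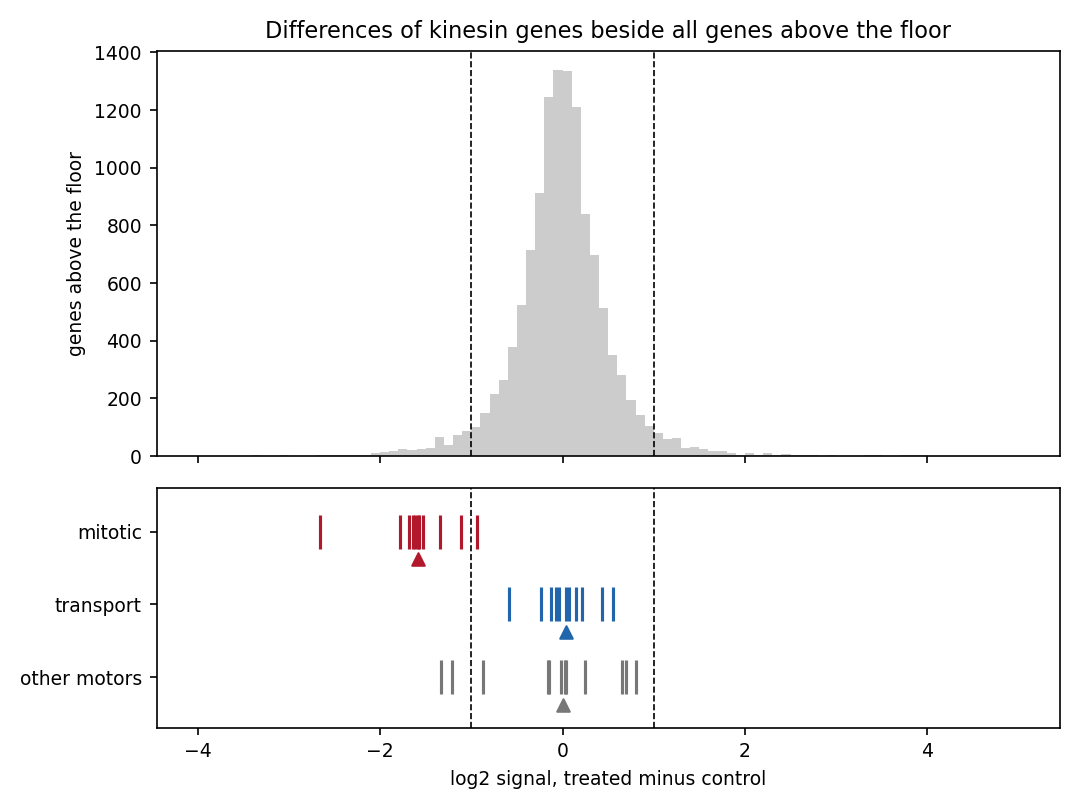
Histogram of the log2 difference, treated minus control, of the 12353 measured genes (top) and the differences of the measured mitotic, transport and other kinesins as ticks with the class median as a triangle (bottom); dashed lines mark 2-fold. The mitotic ticks run from -2.66 to -0.94 in the left tail, and the transport ticks from -0.58 to 0.55 lie across the centre.

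Transport kinesins lay on both sides of 0. All 11 measured members differed by less than 1.5-fold, where 19.2% of all measured genes differed by at least 1.5-fold. For 11 genes, a count of 0 past 1.5-fold is not far from that share. Of the 11 members, 5 were below 0 and 6 above. KIF5B, the ubiquitous heavy chain of conventional kinesin, had 12.64 in treated and 12.70 in control medium, a difference of -0.07. Its relatives KIF5A and KIF5C, best known from neurons, were under the floor in both media. KIF3A and KIF3B, which with KIFAP3 form the trimeric motor of intraflagellar transport, had log2 differences of 0.55 and 0.21. KIF3B had 10.14 in treated and 9.93 in control medium. KIF3A had 8.90 in treated and 8.35 in control medium, the highest difference of a transport member, while KIFAP3, which is not a motor, had 9.67 and 9.68. None of these 3 subunits passed 1.5-fold, and KIFAP3 lay nearest to 0. KIF3C, which can replace KIF3B, had 9.34 in treated and 9.47 in control medium, and KIF17, a homodimeric ciliary motor, was under the floor in both.

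Endosome and vesicle motors of the kinesin-3 group also stayed within 1.5-fold, as did 9981 of the 12353 measured genes. With so few motors this is near the share of all measured genes. KIF1C, a carrier of secretory vesicles and integrins, had 9.99 in treated and 10.57 in control medium, a difference of -0.58 and the lowest transport member. KIF13A, which moves recycling endosomes, had 9.31 in treated and 8.88 in control medium, a difference of 0.43. Its relative KIF13B had 9.01 in treated and 8.96 in control medium, 0.39 below KIF13A in log2 difference. KIF1B, a carrier of mitochondria and synaptic vesicle precursors, had 9.14 in treated and 9.18 in control medium, and its sign changed under quantile normalization (0.0029). KIF16B, a motor of early endosomes, had 8.54 in treated and 8.39 in control medium, and KIF1A, a neuronal vesicle motor, was under the floor. The 4 transport members under the floor, KIF5A, KIF5C, KIF17 and KIF1A, had differences from -0.10 to 0.16. The minus-end motor KIFC3, found at cell junctions, had 8.66 in treated and 8.59 in control medium, and KIFC2 had 7.45 in treated and 7.69 in control medium. Set beside KIFC1, the mitotic minus-end motor at -1.53, both lay far nearer to 0.

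The other motors had a median near 0. Of 16 genes, 12 were measured, with a median of 0.01, and 2, KIF2C and KIF4B, were at least 2-fold lower, beside 3.46% of all measured genes. KIF24, a depolymerase that holds back cilium growth at the mother centriole, had 8.02 in treated and 8.89 in control medium, 1.82-fold lower, the next below them. KIF2A, a depolymerase of spindle poles and neurites, had 10.96 in treated and 11.11 in control medium. KIF2C was thus 2.28-fold beyond KIF2A, the member of the same depolymerase group, and KIF2B was under the floor. KIF21A, which restrains microtubule growth, had 8.65 in treated and 8.81 in control medium. KIF7, a regulator of Hedgehog signalling in cilia, had 8.57 in treated and 8.53 in control medium, and KIF19, a motor that limits cilium length, had 7.31 in treated and 7.29 in control medium. KIF12 had 7.59 in treated and 7.34 in control medium, and KIF26A had 7.70 and 7.72. None of the last 4 genes passed 1.5-fold. The value of KIF26A changed sign when columns were centred on their medians (0.0023).

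Of the 34 measured kinesin motors, 0 were 2-fold higher in treated medium, beside 3.22% of all measured genes. Among so few genes this count is near that share. The 3 measured kinesins with the highest differences were KIF9, KIF21B and KIF27, each higher by more than 1.5-fold, which 9.46% of all measured genes reached. KIF9, a motor of motile cilia and flagella, had 7.63 in treated and 6.82 in control medium, 1.75-fold higher. KIF21B, a relative of KIF21A, had 7.86 in treated and 7.16 in control medium, 1.63-fold higher, while KIF27, a relative of KIF7, had 7.66 and 7.01, 1.57-fold higher. All 3 control signals were under the floor of 7.17, so these folds rest on weak signal. KIF6, KIF25 and KIF26B were under the floor in both media, with differences of -0.34, -0.05 and 0.13. The antisense RNA genes KIF9-AS1 and KIF25-AS1 were also under it, at 0.59 and -0.22.

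**Figure D3:**
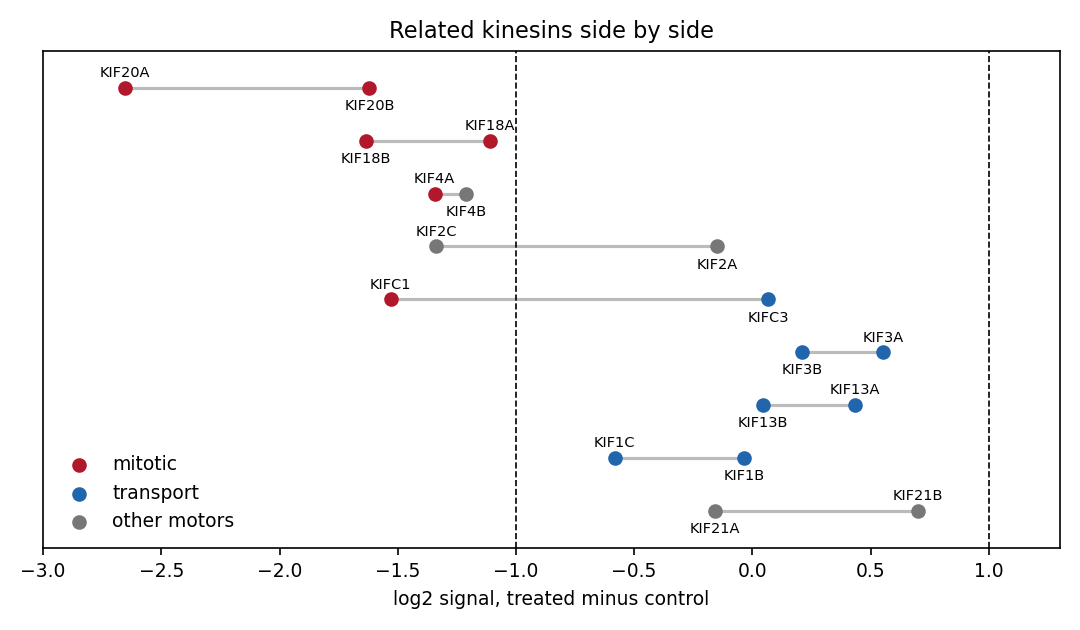
Log2 differences, treated minus control, of 9 pairs of related or partner kinesins, joined by a line and coloured by class, with dashed lines at 2-fold. KIF2C and KIFC1 lie beyond 2-fold while KIF2A and KIFC3 lie near 0, and both members of the KIF20, KIF18 and KIF4 pairs lie beyond 2-fold lower.

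Partners of the mitotic kinesins were lower too. Of 18 listed genes 17 were measured, and all 17 had negative differences, beside 50.6% of all measured genes. For 13 the treated signal was 2-fold lower or more, beside 3.46% of all measured genes. The list median was -1.48. CENPE, itself a kinetochore kinesin under another symbol, had 8.59 in treated and 10.63 in control medium, 4.10-fold lower. BIRC5 (survivin), a subunit of the passenger complex that KIF20A carries, was 3.95-fold lower, and AURKB, its kinase, was 2.61-fold lower. HMMR, a spindle protein, was 3.72-fold lower and PLK1, which docks on KIF20A, was 3.33-fold lower. PRC1, the bundling protein that KIF4A binds, was 3.12-fold lower and CIT, the citron kinase gene, was 2.82-fold lower. ANLN, AURKA, CDCA8, NUSAP1, INCENP and CEP55 were the other members past 2-fold, with differences from -1.66 to -1.25. TPX2, which loads KIF11 and KIF15 onto the spindle, was 1.48-fold lower, and NUMA1, a pole-focusing protein, was nearest to 0 at -0.13. RACGAP1, the partner of KIF23, was under the floor in both media.

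General cell cycle genes differed in the same direction. Of 15 G2 and M phase genes without kinesins, 14 were measured and all 14 were at least 2-fold lower, beside 3.46% of all measured genes, with a median of -1.55, close to the -1.58 of the mitotic kinesins. CCNA2 (cyclin A2) was 4.46-fold lower, ASPM 4.30-fold and MKI67, the proliferation marker, 3.79-fold, while UBE2C was nearest to 0 at -1.15. Summed over all 15 listed genes, with PTTG1 under the floor included, antilog signal was 12031 in treated and 36380 in control medium. This sum sets the list between media, not gene against gene, and genes with bright probes weigh most in it. Of 12 G1 and S phase genes, 9 were at least 2-fold lower, beside the same 3.46%, with a median of -1.11 and a wider range from -3.31 for CCNE2 to -0.18 for MCM6. The kinesin values lay beside lower values in most of the listed proliferation genes, and its part in the kinesin difference was not tested.

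Genes listed for transcription control of G2 and M genes lay on both sides of 0. They include E2F family members beside factors of the CHR and CCAAT elements. Of 15 listed, all measured, 3 passed 2-fold downwards, beside 3.46% of all measured genes, and 1 upwards, beside 3.22%, and the median was -0.44. MYBL2 (B-MYB) had 9.57 in treated and 11.51 in control medium, 3.83-fold lower, and FOXM1 had 9.70 in treated and 11.07 in control medium, 2.58-fold lower. E2F8, a repressor of the E2F family, was 4.93-fold lower, while its relative E2F7 was 2.13-fold higher. The MuvB core genes LIN9, LIN52, LIN54 and LIN37 showed log2 differences of -0.48, -0.44, 0.13 and 0.77. The NF-Y genes NFYA, NFYB and NFYC showed log2 differences of 0.09, -0.71 and -0.20, and RBL1 (p107) and RBL2 (p130), the pocket proteins of DREAM, showed -0.98 and -0.11. TFDP1, the dimer partner of E2F factors, had a log2 difference of -0.88. Protein levels were not measured.

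Among transport partners, dynein and tubulins, 0 measured genes passed 2-fold, beside 6.69% of all measured genes. Within each of these short lists, a count of 0 is near that share. Of 14 cargo and adaptor partners, 11 were measured, with a median of 0.08. KIAA1279 (current symbol KIFBP), which binds and inhibits several kinesins, was 1.84-fold lower and furthest from 0, and the mitochondrial adaptor TRAK2 was 1.33-fold higher. Kinesin light chain genes KLC1 and KLC2 had differences of 0.03 and 0.18. Of 19 genes of cytoplasmic dynein and dynactin, the minus-end transport machinery, 18 were measured, with a median of 0.01 and a range from -0.44 for DCTN3 to 0.55 for DYNC1H1, the heavy chain. Of 11 tubulin genes, the track on which kinesins walk, 10 were measured and 9 were below 0, beside 50.6% of all measured genes, with a median of -0.26. TUBG1 (gamma tubulin) had the lowest difference, with 10.36 in treated and 11.27 in control medium, 1.87-fold lower. Tubulin genes have close copies, and their single values are uncertain.

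**Figure D4:**
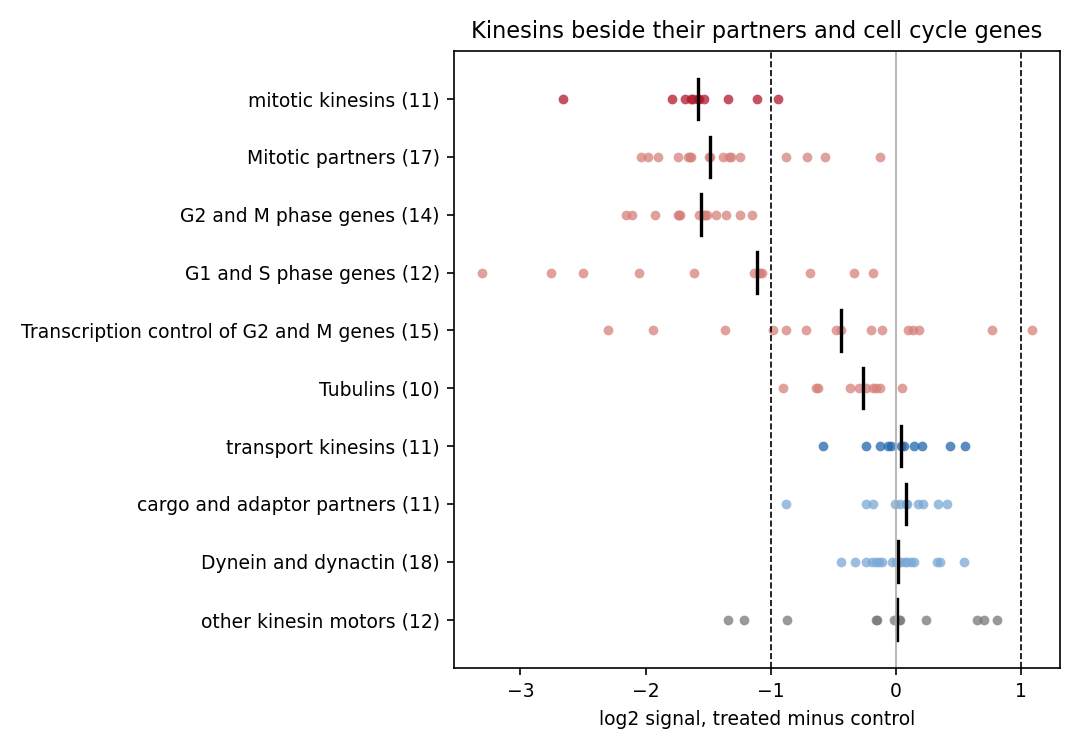
Log2 differences, treated minus control, of measured genes of each list (number in parentheses), with the list median as a black bar and dashed lines at 2-fold. Medians of mitotic kinesins, mitotic partners and G2 and M phase genes lie between -1.48 and -1.58, and those of transport kinesins, cargo partners, dynein and other motors between 0.01 and 0.08.

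In the authors' deposited table of ratios past 2-fold, 14 of the 1197 entries lower in treated medium were kinesins, from 12 symbols, and 0 of the 870 entries higher in treated medium were. Kinesins held 47 clusters among the 53617 gene-level probe sets, so a count of 0 among 870 is near that share. The ratios come from the same signals as above and are no separate evidence. The 12 symbols were the 10 mitotic members past 2-fold, KIF2C and KIF4B, and KIFC1 had 3 of the entries. In the authors' deposited table the control over treated ratio was highest for KIF20A, at 6.30, and lowest for KIF18A, at 2.16.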

How the data were processed

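Gene expression was measured on Affymetrix human arrays in 4 samples: treated and control medium, each summarised at gene and at exon level. Per the submitters' processing notes, the deposited log2 signal was made by RMA with the Affymetrix Expression Console software. Its version and the genome build are not given in the sources used here. This method brings the arrays it is run on to a common distribution of probe signals, which reduces a change common to most genes. The deposited columns did not share 1 distribution exactly, with medians of 6.31 in treated and 6.33 in control medium. The authors' deposited sheet adds linear intensity for either medium and a control over treated ratio. Its intensities matched the antilog of the gene-level values within 5.03e-05 on the log2 scale.

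Symbols came from that sheet, and all 44 kinesin symbols matched a RefSeq table of GRCh38.p14. A symbol with several transcript clusters was represented by the one with the highest mean signal. All 5391 probe sets present at both levels held identical values, so the levels are no replicates, and exon-level values of kinesins were not analysed here, since no table used here links them to genes. Differences are log2 treated minus control, computed with pandas 2.3.3 (Python 3.11.15), and the summary was tested on simulated data. All kinesins were eligible to be named, with both signals for mitotic members. Of the other lists, the 3 largest differences, those past 2-fold and the one nearest to 0 were eligible, and the further genes named, such as partners of named kinesins, were chosen after their values were seen. Members, lists and motifs were chosen with earlier results of these data known. Alternatives covered the floor, the scaling, the choice of cluster, the threshold and the lists.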

Additional observations from a re-analysis of the deposited data

How the results depend on the processing

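With 1 column of values per medium, no alternative could measure error, and no replicate could be left out. No paired analysis was possible because each medium has 1 sample. Over 12 alternative settings, the mitotic median lay between -1.59 and -1.56, and 9 to 11 mitotic kinesins were lower past the threshold (11 of 12 at 2-fold with KIF2C added, 9 of 10 at 2-fold without KIF20A, and 11 of 11 at a threshold of 1.5-fold). The gap to the transport median lay between -1.67 and -1.55. The transport count past 2-fold was 0 under each setting except when all motors outside the mitotic list were used, which gave 2 (KIF2C and KIF4B). The median of the other motors was -0.74 with a floor at the 75th percentile, where 2 genes remained, KIF2A and KIF2C. Of 224 single-gene values recomputed, 1 moved by more than 0.1 (KIFC1, -1.27 as the mean of its 4 clusters, which includes the weak one), 0 crossed 2-fold, and KIF1B and KIF26A changed sign close to 0. This count says little about stability, because most of these values could not move freely. The floor settings leave a gene's value unchanged, and centring shifts all genes by the same amount. Averaging clusters can alter only KIFC1 among the kinesins. For each gene, the share of exon-level probe sets that were lower was planned and not run, since no table used here links exon-level probe sets to genes. Genes near the floor, such as KIF9, KIF21B and KIF27, are limited by weak signal.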
